A study of Arabidopsis thaliana with 4 samples.

Results

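In whole 5-week-old Arabidopsis thaliana plants, 11 of 22746 non-control probe sets (0.0484%) were bright on both ago4-1 arrays and dim on both wild-type arrays. A probe set is a group of short array probes that reports 1 transcript. The members were chosen by their signals, at 100 or more on both ago4-1 arrays and at 30 or less on both wild-type arrays. Before loci were left out, 18 probe sets (0.0791%) passed these limits. Of these, 7 were set aside, namely AT1G10770, AT5G07430, AT3G07820, AT3G01240 and LCR72 by name, and AT3G26110 and AT3G28840 because they lie in the chromosome 3 stretch from AT3G24450 to AT3G47250. Of the 11 that remained, 5 were paired with a single gene: the pseudogene AT2G04460, AT3G02480, AT5G26700, AT5G39880 and AT5G61720. The other 6 had no gene in the annotation used here and are given by signal only, so they could not be held against the left-out loci.

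The study hybridised total RNA of 4 samples to Affymetrix ATH1 arrays. Wild type was the La-er line (2 arrays), and the mutant was the ago4-1 allele of AGO4 (2 arrays), both grown in hydroponics with 16 h of light. The sample titles name both arrays of each genotype as biological replicates, and nothing says whether plants were pooled, so p-values measure the spread between these samples. AGO4 is an Argonaute protein that is loaded with small interfering RNAs and guides DNA methylation to matching loci, mostly transposons and repeats, which are then kept silent. Loss of this pathway is known to release some repeats and a few genes that lie beside them. The question the submitters put is which genes differ between the genotypes, with the part of AGO4 in plant development in view.

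Low and high are positions on the scale of the arrays, not detection calls, which are not used here. A signal of 30 or less was held by 22.2% to 23.0% of probe sets on each array, and a signal under 100 by 41.1% to 42.2%. The median signal was 151.0 to 165.1. The green-leaf markers RCA and LHCB4.1 lay between 28690 and 31770 on every array. The root marker PYK10 gave 290.5 and 113.6 for wild type, then 350.8 and 137.3 for ago4-1. Because whole plants were used, fewer cells of a type and less RNA per cell cannot be told apart in any value below. The rule used both genotypes of all 4 arrays, so the differences of the members are descriptions and carry no test.

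Of the 5 named members, 3 encode proteins of a known family, 1 is a pseudogene, and the role of AT5G39880 is not given here. AT3G02480 encodes a small protein of the late embryogenesis abundant kind, hydrophilic proteins that accumulate in drying seeds and pollen and in tissues treated with abscisic acid. Wild-type plants gave signals of 4.19 and 14.7, ago4-1 plants 204 and 312. The groups lay far apart, with the lower ago4-1 array 13.95 times the higher wild-type array. As means that was 9.42 ± 7.39 against 258 ± 76.4 (SD, n = 2 each). The difference was 3.43 on the log2(signal + 16) scale, where the added 16 keeps signals near the floor from setting the fold and so understates the change of low genes.

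AT5G61720 encodes a protein of the DUF1216 family, whose function is unknown. Its wild-type signals were 5.35 and 16.9 and its ago4-1 signals 122 and 142. The lower ago4-1 array was 7.23 times the higher wild-type array, and the ago4-1 arrays themselves differed by a ratio of 1.17. The log2 difference was 2.48.

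AT5G26700 encodes a germin-like protein of the cupin family, secreted proteins of the cell wall. Its wild-type signals were 1.91 and 29.7, and its ago4-1 signals 157 and 122. The wild-type arrays differed by a ratio of 15.5, which is wider than the ratio of 4.11 between the lower ago4-1 array and the higher wild-type array. The log2 difference was 2.43, from 15.8 ± 19.6 to 139 ± 24.5 (SD, n = 2 each). Of the named members it is the one whose wild-type replicates are farthest apart, and quantile normalization of the arrays took it out of the set.

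AT2G04460 is annotated as a pseudogene on chromosome 2. Wild-type plants showed 9.99 and 18.7, ago4-1 plants 101 and 152, a log2 difference of 2.23. The lower ago4-1 array was just over the limit of 100. Of 989 paired probe sets for pseudogenes, 694 were at 30 or less on both wild-type arrays and 11 were at 100 or more on both ago4-1 arrays. Only AT2G04460 met both conditions. The rule takes only probe sets dim in wild type. Of the 694 pseudogene probe sets dim there 1 passed, where 18 of all 4068 dim probe sets did (0.442%). Pseudogenes make up 7.36% of the paired probe sets and 1 of the 5 named members. With so few members, no enrichment can be read from that.

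AT5G39880, on chromosome 5, had the narrowest spread of the named members in both genotypes. Signals of 21.4 and 16.0 for wild type stood against 102 and 110 for ago4-1. The replicates differed by ratios of 1.34 and 1.08, against 4.79 between the lower ago4-1 and the higher wild-type array. Its log2 difference of 1.82 was the lowest of the 11.

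**Figure D1:**
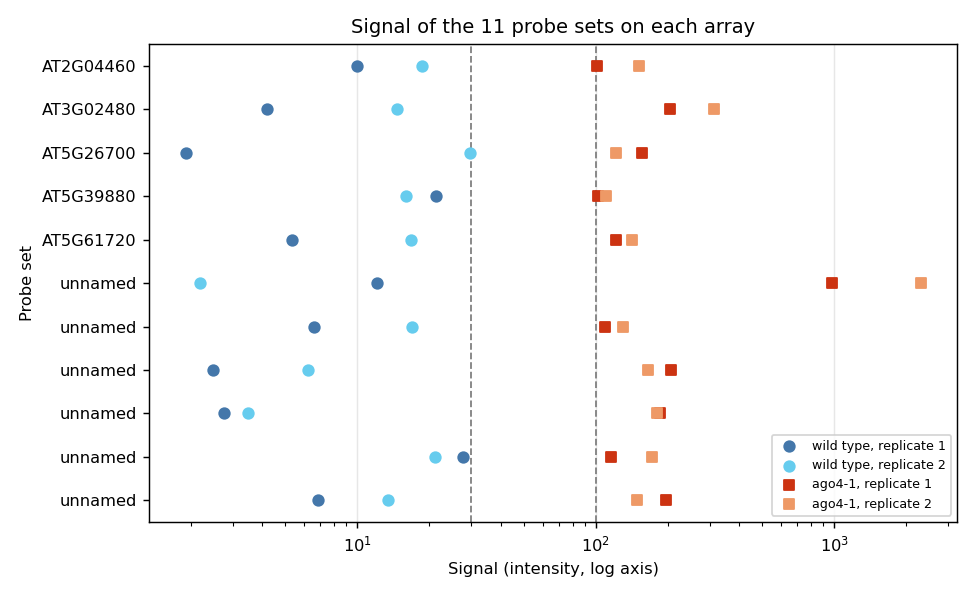
Signal of each of the 11 probe sets on the 4 arrays (log axis); circles are wild-type arrays, squares are ago4-1 arrays, and the dashed lines mark the limits of 30 and 100. The wild-type signals run from 1.91 to 29.7 and the ago4-1 signals from 101 to 2304.

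Of the 6 unnamed members, 1 had the largest log2 difference of all 22746 probe sets, 6.07. Its wild-type signals were 12.1 and 2.20, its ago4-1 signals 977 and 2304. Its ago4-1 arrays differed by a ratio of 2.36, the widest of the 11, yet the lower of them was 80.5 times the higher wild-type array. Another was the tightest of the 11, with 2.76 and 3.49 for wild type, 186 and 180 for ago4-1, and a ratio of 51.7 between the nearest arrays of the genotypes. The other 4 unnamed members ran from 2.48 to 27.8 in wild type and from 109 to 206 in ago4-1. Unnamed probe sets were 54.5% of the members and 38.4% of the whole table, and 0 members had several genes. All 11 identifiers end in the plain _at that Affymetrix gives to probe sets designed against 1 transcript, as do 95.3% of all probe sets.

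The rule bounds the ago4-1 signals from below and lets the wild-type signals fall to the floor, so the replicate ratios of the genotypes are not comparable. The ratio of the brighter to the dimmer array had a median of 1.28 in ago4-1 and of 2.50 in wild type. The second replicate was the brighter of the ago4-1 arrays for 7 members and the first for 4. In wild type the second was the brighter for 8 and the first for 3. The log2 differences of the members ran from 1.82 to 6.07 with a median of 2.48.

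**Figure D2:**
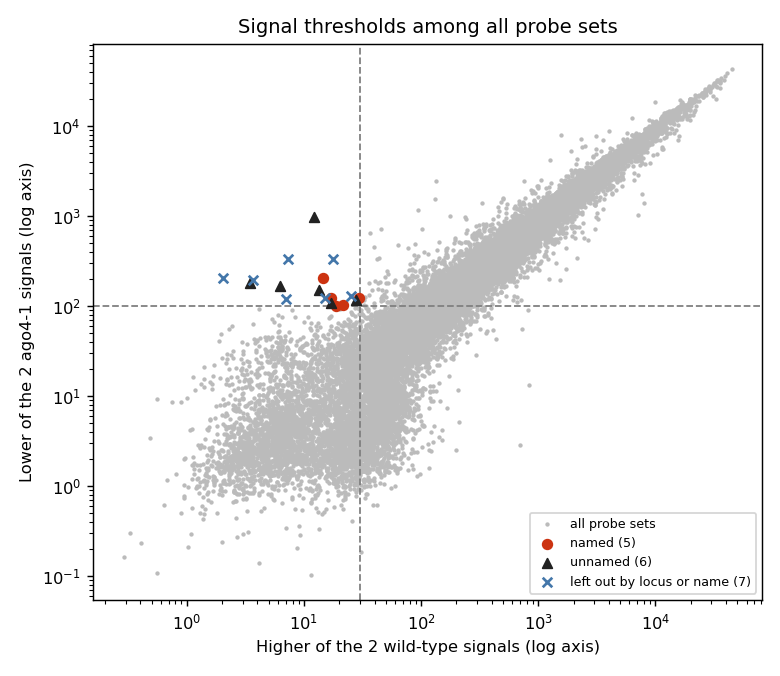
Every non-control probe set by the higher of its 2 wild-type signals and the lower of its 2 ago4-1 signals (both log axes), with the limits of 30 and 100 dashed. The 11 members and the 7 probe sets left out occupy the upper left field, and several named members sit close to its edges while 1 unnamed member stands far above the others.

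Most of the named members lie near the limits. Inside them, AT5G26700 had a wild-type array at 29.7, AT2G04460 an ago4-1 array at 101 and AT5G39880 an ago4-1 array at 102. Just outside, with an ago4-1 array under 100, were AT2G19000 (wild type 29.1 and 13.0, ago4-1 103 and 96.0), AT1G51430 (27.3 and 4.99, 99.4 and 94.6) and AT5G47000 (20.4 and 4.31, 93.6 and 106). With a wild-type array over 30 were AT2G15830 (wild type 32.3 and 26.8, ago4-1 121 and 102), AT3G59180 (33.9 and 12.2, 101 and 107) and AT4G02250 (30.4 and 35.9, 179 and 133). These genes differ from the members by little more than the choice of limit. With limits of 150 and 20 in place of 100 and 30 the set held 4 probe sets, of which AT3G02480 was the only named one, and with 80 and 40 it held 40, of which 22 were named.

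The step from 30 or less to 100 or more also occurred between arrays of the same genotype. Of the probe sets at 30 or less on a wild-type array, 10 or 12 reached 100 on the other wild-type array (0.191% and 0.233%). Between the ago4-1 arrays the counts were 12 and 31 (0.237% and 0.6%). From a wild-type array to an ago4-1 array the counts were 61 to 83 (1.18% to 1.61%), and from an ago4-1 array to a wild-type array 26 to 41 (0.514% to 0.793%). With both arrays of each genotype required, 18 of 4068 probe sets low in wild type were high in ago4-1 (0.442%), and 6 of 3947 low in ago4-1 were high in wild type (0.152%). Of all probe sets, those 6 were 0.0264%. Of them, 3 were paired with a gene, AT5G20460 on chromosome 5 and, in the left-out stretches, AT3G47250 and AT1G63540.

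No 2 of the named members were close neighbours. AT2G04460 is on chromosome 2, AT3G02480 on chromosome 3 and the remaining 3 on chromosome 5, where 1708 annotated genes separate AT5G26700 from AT5G39880 and 2855 separate AT5G39880 from AT5G61720. Between AT2G04460 and AGO4, on the same chromosome, lie 3023 annotated genes. AT3G02480 is 2926 genes from the near end of the left-out stretch of chromosome 3.

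Within 10 annotated genes on either side of the named members, 42 probe sets were paired with a gene. Of these 0 passed the signal rule, which 0.0791% of all probe sets passed, so a count of 0 is near that background. Their log2 differences ran from -1.48 to 0.58 with a median of -0.13, where the median over all probe sets was -0.03. Of the 29 that were bright enough to be tested with limma, 0 were called higher and 1 lower, or 3.45%, where 4.06% of all 15922 tested probe sets were called (2.14% higher and 1.92% lower, a split that moved to 356 higher and 653 lower probe sets without ago4-1 replicate 2). The neighbour called was AT3G02450, with 700 and 630 for wild type, 397 and 390 for ago4-1, and a log2 difference of -0.73 (limma adjusted p = 0.045). It no longer passed when any 1 of the 4 arrays was left out (limma adjusted p from 0.0596 to 0.254), nor with quantile normalization (0.0527) or median-centred arrays (0.0645).

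Beside AT3G02480, the adjoining gene SAMDC, which makes a precursor of polyamines, gave 14030 and 12300 for wild type, 11290 and 12530 for ago4-1, so the genotypes overlapped. AT3G02490 on its other side was at 375 and 382 against 299 and 248 (log2 difference -0.45, limma adjusted p = 0.212). Next to AT5G26700, AT5G26710 gave 2065 and 1924 for wild type, 1910 and 1909 for ago4-1. AT5G39870, next to AT5G39880, was low on every array, with 9.38 and 14.8 for wild type, 3.67 and 1.73 for ago4-1. The nearest paired genes to the pseudogene AT2G04460, both 2 genes away, were AT2G04440 at 8.53 to 16.0 on the 4 arrays, and AT2G04480 at 102.5 and 60.8 for wild type, 35.9 and 26.1 for ago4-1 (log2 difference -1.03, limma adjusted p = 0.203). For AT5G61720 it was AT5G61710, 2 genes away, at 1.51 to 7.96 on the 4 arrays. Log2 differences of the 7 paired neighbours of AT5G39880 ran from -0.77 to -0.07. Those around every other named member lay on both sides of 0.

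**Figure D3:**
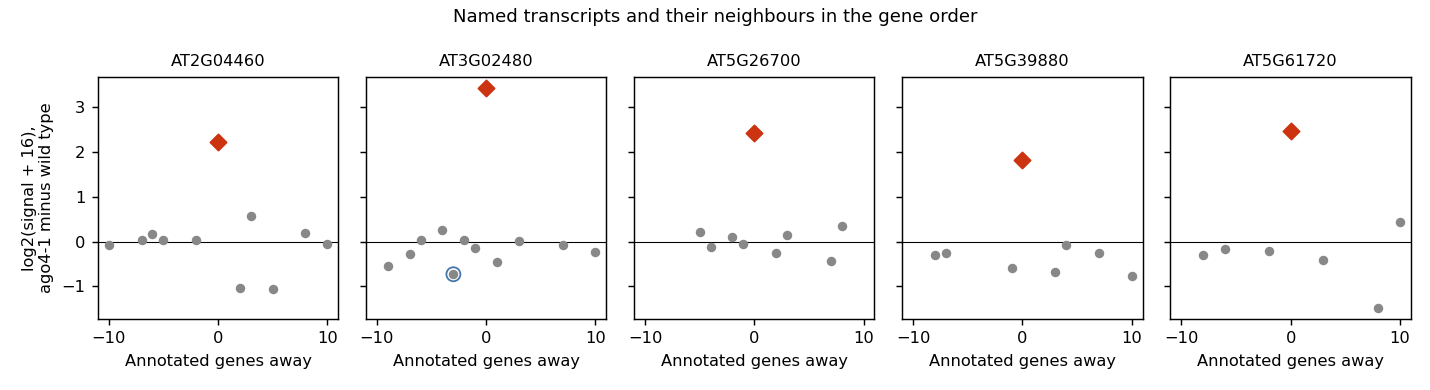
Log2 difference, ago4-1 minus wild type, of each named member (red diamond) and of the paired probe sets up to 10 annotated genes away on either side (grey points; the blue ring marks the 1 neighbour called by limma). The members stand at 1.82 to 3.43 and their neighbours between -1.48 and 0.58.

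Relatives of the named members, chosen after the values were seen, were measured for 2 of the families. AT5G38760 and AT5G53820 encode small late embryogenesis abundant proteins like that of AT3G02480. AT5G38760 went from 124 and 67.2 to 302 and 404, a rise of 1.76 (SE 0.29) on the log2 scale with a limma adjusted p of 0.0156. It did not pass without ago4-1 replicate 1 (limma adjusted p = 0.0511) or replicate 2 (0.0528). AT5G53820 was at 264 and 202 against 351 and 393, a log2 difference of 0.65 that did not pass (limma adjusted p = 0.116). Neither was dim in wild type, so the low wild-type signal of AT3G02480 was not shared by these relatives. Of 9 listed genes of abscisic acid and drought, also chosen after the values were seen, only 3 were paired with a probe set and 0 were called. COR15A, COR15B and AT2G41190 had log2 differences of -0.81, -1.02 and -0.34 (limma adjusted p = 0.168, 0.121 and 0.503).

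Of the DUF1216 family of AT5G61720, 4 other genes were measured, all in the left-out stretch of chromosome 3. AT3G28840 passed the signal rule, with 15.2 and 3.45 for wild type, 122 and 156 for ago4-1. AT3G28790 rose from 81.2 and 93.8 to 191 and 301 (log2 difference 1.31, SE 0.27, limma adjusted p = 0.0349), a call lost without ago4-1 replicate 2 (limma adjusted p = 0.0961). AT3G28830 was at 13.7 and 62.5 against 69.0 and 138 and did not pass (limma adjusted p = 0.227). AT3G28780 was at 11.8 and 6.08 against 37.8 and 8.33, where the genotypes overlapped.

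Marker lists were set beside the members, since genes of pollen, seeds or nectaries can be bright in a few cells of a whole plant. Of 131 listed genes 33 were paired with a probe set, and 0 of the 5 named members was on any list. The lists were drawn up with earlier results of these data known, so this absence does not say where the members are expressed. The late-pollen list had 19 paired genes of 45. Of these, 4 passed the signal rule and are among the genes left out by name; the list was drawn up with their values known. Of its other 15 genes, 12 were above 0, with a median log2 difference of 0.96, where 47.1% of all probe sets were above 0. Their summed signal came to 405 and 341 for wild type, 1370 and 1224 for ago4-1, and the groups did not overlap. Such a sum gives bright genes the most weight. AT5G45880, AT3G01270 and AT1G29140, given singly below, were the brightest of the 15 in ago4-1.

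Within that list the Ole e 1-like AT5G45880 rose from 114 and 88.4 to 454 and 379 (log2 difference 1.89, SE 0.22, limma adjusted p = 0.00359). The Ole e 1-like AT1G29140 rose by 2.18 (SE 0.35, limma adjusted p = 0.0147), from 37.8 and 22.3 to 241 and 150, and was lost without ago4-1 replicate 1 (limma adjusted p = 0.1). Its wild-type mean alone was under the low-signal filter (5.50 against a limit of 5.91 on the log2 scale), so it was tested only because it was bright in ago4-1. The pectate lyase AT3G01270 rose by 1.65, from 104 and 56.4 to 262 and 291 (limma adjusted p = 0.0178), and was lost without ago4-1 replicate 1 (limma adjusted p = 0.0741) or replicate 2 (0.0551). With no low-signal filter or no variance trend in limma, AT5G45880 was still called, and the calls of AT5G38760, AT3G28790, AT1G29140, AT3G01270 and AT3G02450 were lost. In the other direction, AT5G10130 stood at 9.80 and 37.9 against 3.56 and 6.33. The receptor kinases ANX1 and ANX2, which keep pollen tubes intact, lay between 2.22 and 13.8 on every array, with log2 differences of -0.2 and 0.45. The pollen regulator AGL104 lay between 11.7 and 15.7, with a difference of -0.03. Of the 15 genes, only AT5G10130, ANX1 and AGL104 were below 0. Among other genes too dim to be tested, AT5G07420, AT5G15110, AGL66 and AT59 had log2 differences of 2.21, 1.44, 1.19 and 1.04. Whether the share of pollen in the samples moved the named members was not tested.

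Other cell types were covered thinly. The seed list had 1 paired gene of 15, BAN, at 2.96 and 2.63 against 17.0 and 2.83. The sperm-cell list had 1 of 5, MGH3, at 11.9 and 39.0 against 23.2 and 3.58. Of 3 paired tapetum and early anther genes, A9 (AT5G07230) rose from 1044 and 1196 to 2250 and 1690 (log2 difference 0.79, limma adjusted p = 0.0402), which did not pass without wild type replicate 1 (limma adjusted p = 0.103) or ago4-1 replicate 1 (0.115), with no low-signal filter or with no variance trend. AMS overlapped between the genotypes, at 65.5 and 69.2 against 33.0 and 69.7, and so did AT1G75920, at 177 and 234 against 287 and 147 (log2 difference 0.01, limma adjusted p = 0.986). The nectary exporter SWEET9, excluded from the members by name, stood at 26.6 and 44.3 against 185 and 223, so its second wild-type array was over the limit of 30. The nectary-linked JMT had a log2 difference of -0.51 (limma adjusted p = 0.153). Of 2 paired guard-cell genes, CHX20 was lower in ago4-1 (log2 difference -2.22, limma adjusted p = 0.00372) and AT1G22690 had a difference of 0.08 (0.833). Of 3 paired root genes, EXPA18 and PYK10 did not pass (log2 differences -1.44 and 0.25, limma adjusted p = 0.186 and 0.802) and EXPA7 was too dim to be tested. The lists of floral organ identity, RNA-directed DNA methylation, maintenance methylation and methylation-silenced genes had 0 paired genes and were not analysed here. For these lists, too, a part in the members' signals was not tested.

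**Figure D4:**
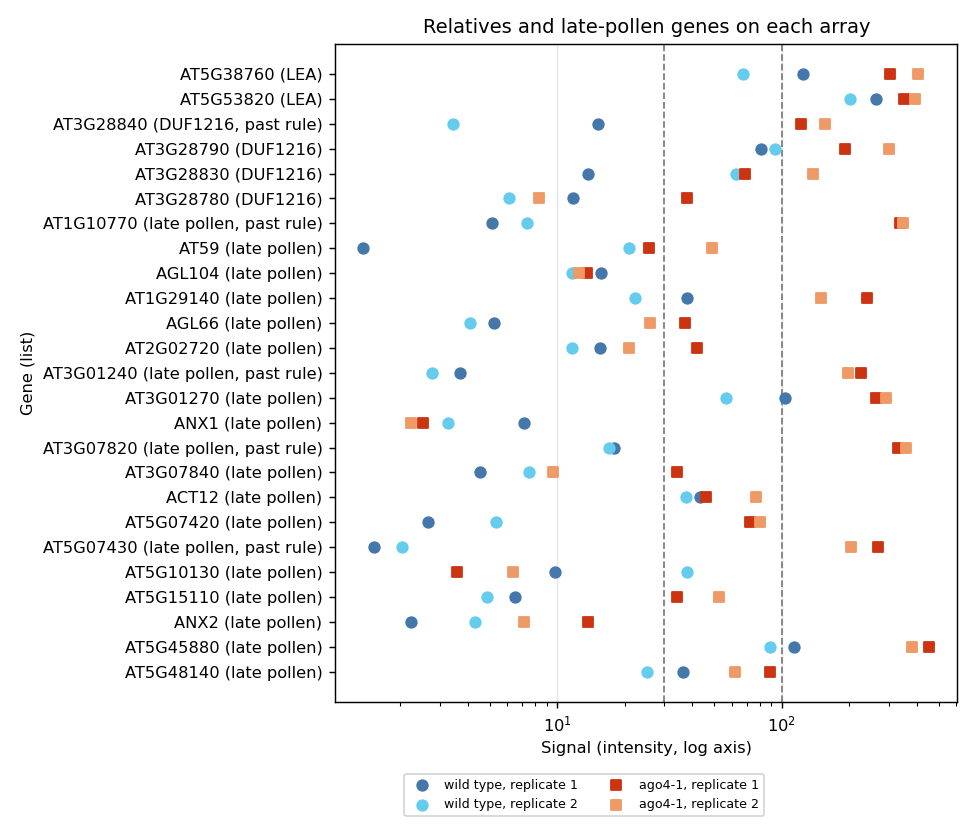
Signal on the 4 arrays (log axis) of relatives of AT3G02480 (LEA) and AT5G61720 (DUF1216) and of the late-pollen list; circles are wild type, squares ago4-1, dashed lines the limits of 30 and 100, and "past rule" marks genes that meet both limits. Most late-pollen genes are brighter on both ago4-1 arrays, whereas ANX1 and AT5G10130 are dimmer and AGL104 overlaps.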

How the data were processed

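The deposited table holds linear intensity values, 1 for each probe set on each array. The authors used GCOS, per the submitters' processing notes, with version and settings not given in the sources used here. No further normalization was applied. Controls (64 of 22810 probe sets) were removed. The platform annotation gave 1 gene for 13513, several for 503 and none for 8730. RefSeq's gene table of TAIR10.1 held the gene ID of 13436 and was used only for names, biotypes and gene order. The members were taken by their signals. For other genes, log2(signal + 16) was compared with limma 3.58.1 in R 4.3.3 (variance trend, two-sided, Benjamini-Hochberg over all 15922 probe sets at or over the 30th percentile of mean log2 value, threshold 0.05, 2 residual and 6.72 median prior degrees of freedom) and tested on simulated data. The number of arrays limits the precision. All 11 members passed that filter; a probe set dim in wild type passes it only if bright in ago4-1. The members, lists and tests were chosen with earlier results of these data known. Every named member, the 3 paired probe sets nearest each limit and called neighbours are named; relatives were added after the values were seen. Promoters and proteins were not analysed here. The alternatives were other limits, quantile and median scaling, pseudocounts of 1 and 64, no variance trend, a filter at the 50th percentile or none, a replicate block and each array left out.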

Additional observations from a re-analysis of the deposited data

How the results depend on the processing

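The set of 11 probe sets became 40 with limits of 80 and 40 and 4 with limits of 150 and 20, and ran from 20 to 34 with 1 array left out, which by construction asks less of the data and kept all 11. It was 10 with quantile normalization and 12 with median-centred arrays. The mirrored set of 6, from which no loci were left out, became 12 and 3 with those limits and ran from 9 to 19 with 1 array left out. It compares with the 18 probe sets before loci were left out, not with the 11. The 647 calls over all probe sets became 140 with no low-signal filter, 93 with no variance trend, and 284 to 1009 with 1 array left out. Their split of 341 higher and 306 lower became 374 and 223 with median-centred arrays, 91 and 49 with no filter, 66 and 27 with no trend, 331 and 184 or 572 and 311 without wild type replicate 1 or 2, and 356 and 653 without ago4-1 replicate 2. The 10 called genes of the lists became 6 with no filter and 2 with a filter at the 50th percentile. These 10 include the 4 late-pollen genes that passed the signal rule, so their calls are no separate result. Those 4, AT1G29140 and SWEET9 were tested only because they were bright in ago4-1, as their wild-type means alone were under the filter. On the late-pollen list without those 4, 3 of 5 tested genes were called higher, where 2.14% of all tested probe sets were. AT5G48140 and ACT12, tested but not called, also had wild-type means under the filter. The list was drawn up with earlier results known, so the 3 of 5 cannot be weighed against that share. The cause of the shifts in calls between settings was not tested. With the replicate number as a block the calls over all probe sets were 2409 and those on the lists 12; the arrays share only a number, and the deviations of same-numbered arrays correlated at 0.166 across probe sets. The rule fixes the sign of the members' log2 differences. Of 88 values under 8 settings a member, 22, all with a pseudocount of 1 or 64, moved by more than the replicate spread. AT3G02480 ran from 2.12 to 4.81 and AT5G39880 from 1.04 to 2.46. Leaving out 1 of the 2 arrays of a genotype shifts a difference by only a part of the gap between them. Those settings therefore could not move a value by more than that spread, and their unmoved values show nothing about stability. Wild-type signals near the floor limit how far these differences can be fixed.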
